A study of Mus musculus with 4 samples.

Results

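FoxO target genes downstream of AKT were examined in wild type and SIN1 knock-out (SIN1 KO) mouse fibroblasts as 15 probe sets for 10 genes, out of 45101 probe sets in the deposited table. A probe set is a group of short probes against 1 transcript, and its value here is an RMA log2 value, on which a difference of 1 is a 2-fold change. The probe sets were picked by their manufacturer IDs for Irs2, Pdk4, Txnip, Ccng2, Gadd45a, Bcl6, Klf2, Klf4, Fbxo32 and Cat, by a rule that reads IDs and no values, though earlier results of these data were known when it was written. Gene names are those under which the probe sets were selected, since the table lists IDs alone. The series consisted of 4 Affymetrix arrays, 2 of wild type cells and 2 of cells in which the SIN1 gene (Mapkap1) was ablated. Both genotypes were of the C57BL/6 strain, were labelled murine epithelial fibroblasts, were grown in DMEM and carried no other treatment or allele in the labels, which add that the knock-out cells have altered metabolism. No label names separate cultures, embryos or clones, and a p-value here therefore reflects array-to-array spread alone, possibly of a technical kind. Neither Mapkap1 nor markers of fibroblasts or of other cell types were analysed here, because no table used here pairs their probe sets with genes, so the genotype and cell type labels were not checked against expression.

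SIN1 is a subunit of mTOR complex 2, the kinase complex that phosphorylates AKT at its hydrophobic motif. Active AKT phosphorylates the FoxO transcription factors, which are then held in the cytoplasm by 14-3-3 proteins. When AKT signalling is low, FoxO factors enter the nucleus and raise genes of insulin signalling, metabolism, cell cycle arrest, DNA repair, protein breakdown and antioxidant defence. Setting the SIN1 KO cells against wild type therefore asks how transcripts of such genes stand when SIN1 is absent. The levels of the FoxO factors, of AKT and SGK genes and of further FoxO targets were not analysed here, for the reason given for Mapkap1.

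FoxO factors bind DNA at the core letters GTAAACA and, in insulin response elements, at the related CAAAACA. RefSeq promoter windows (GRCm38.p6), from 250 bases before to 50 bases after a gene's start, were searched for 9 of the 10 genes (not Fbxo32), in 10 windows of which Bcl6 had 2. Both strands were read for both motifs, and they do not overlap one another in any match. GTAAACA was present in 1 of the 10 windows and CAAAACA in 2, against 3.65% and 6.28% of the 32851 windows of all genes. The 3 windows with a match are shown up to the gene's start, 5′ to 3′ on the gene's strand, with the motif in capitals. Windows without a match are not shown. A match is a run of letters, and binding was not measured in this series.
Irs2 (chr8:11008930-11009179, minus strand): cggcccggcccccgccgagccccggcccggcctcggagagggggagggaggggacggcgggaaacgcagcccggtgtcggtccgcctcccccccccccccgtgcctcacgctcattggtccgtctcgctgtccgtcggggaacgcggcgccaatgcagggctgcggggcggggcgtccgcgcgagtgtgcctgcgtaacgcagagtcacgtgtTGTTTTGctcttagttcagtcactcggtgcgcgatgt
Txnip (chr3:96557707-96557956, plus strand): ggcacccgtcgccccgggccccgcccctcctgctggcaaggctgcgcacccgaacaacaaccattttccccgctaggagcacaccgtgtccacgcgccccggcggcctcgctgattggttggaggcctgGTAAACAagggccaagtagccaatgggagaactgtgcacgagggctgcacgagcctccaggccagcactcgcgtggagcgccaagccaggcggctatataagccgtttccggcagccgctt
Ccng2 (chr5:93267323-93267572, plus strand): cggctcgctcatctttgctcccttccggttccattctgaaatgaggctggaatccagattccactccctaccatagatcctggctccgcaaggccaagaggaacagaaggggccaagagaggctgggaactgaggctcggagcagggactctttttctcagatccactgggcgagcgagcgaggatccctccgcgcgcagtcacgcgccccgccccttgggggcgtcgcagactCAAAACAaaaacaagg
The Txnip match began 121 bases before the start. The Irs2 match, TGTTTTG on the gene's strand and so CAAAACA on the other, began 37 bases before it, and the Ccng2 match 16 bases before it. Neither motif was found in the windows of Pdk4, Gadd45a, Bcl6, Klf2, Klf4 and Cat.

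No FoxO target passed limma's test between the genotypes, and the values that follow are descriptions. Irs2 was the one gene for which both knock-out arrays exceeded both wild type ones (all probe sets: 20.4%), by 2.97-fold on average. Gadd45a and 1 of the 2 Ccng2 probe sets were lower on both knock-out arrays (all probe sets: 14.9%), by 2.29-fold and 1.89-fold on average. Leaving out 1 array brought the log2 difference to 0.58 for Irs2 (without SIN1 KO 2) and -0.20 for Gadd45a (without wild type 2). Under a scale set by spiked-in controls, described below, these Gadd45a and Ccng2 probe sets overlapped between the genotypes. Txnip stood above both wild type arrays on SIN1 KO 2, by 0.21 to 0.78 log2 units over its 2 probe sets, and far below them on SIN1 KO 1. The transcripts of Bcl6, Klf2, Klf4, Fbxo32 and Cat had arrays that overlapped between the genotypes, and Pdk4 was not above background on any array.

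None of the 15 probe sets passed limma's moderated test with Benjamini-Hochberg adjustment over the 45037 probe sets tested, where 0% of all probe sets passed, 0 higher and 0 lower. Their adjusted p lay between 0.82 and 0.991. Without adjustment the lowest p was 0.0745, so 0 of 15 fell under 0.05 in either direction, against 3% of all probe sets higher and 2.57% lower. With 2 arrays per genotype an exact two-sided permutation test of 1 gene cannot give a p below 0.333, so none was used as a test of single genes. In counts without a test, SIN1 KO was higher for 6 probe sets and lower for 9 (5 and 9 without Pdk4, which was below background on every array), beside 53.9% and 46.1% of all probe sets. The arrays of the genotypes did not overlap for 3 of 15, 1 higher (all probe sets: 20.4%) and 2 lower (all probe sets: 14.9%). These shares are no larger than the background. A difference of at least 1 log2 unit was seen for 1 probe set higher, Irs2, and 2 lower, Gadd45a and a Txnip probe set, where 4% and 5.84% of all probe sets reached that size. The median log2 difference was -0.38 over the 15 probe sets and -0.26 over the 10 genes, beside 0.04 over all probe sets. The median of the 15 depended on each array, at -0.06 without wild type 1, -0.20 without wild type 2, -0.02 without SIN1 KO 1 and -0.14 without SIN1 KO 2, each nearer to 0 than with all arrays.

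**Figure D1:**
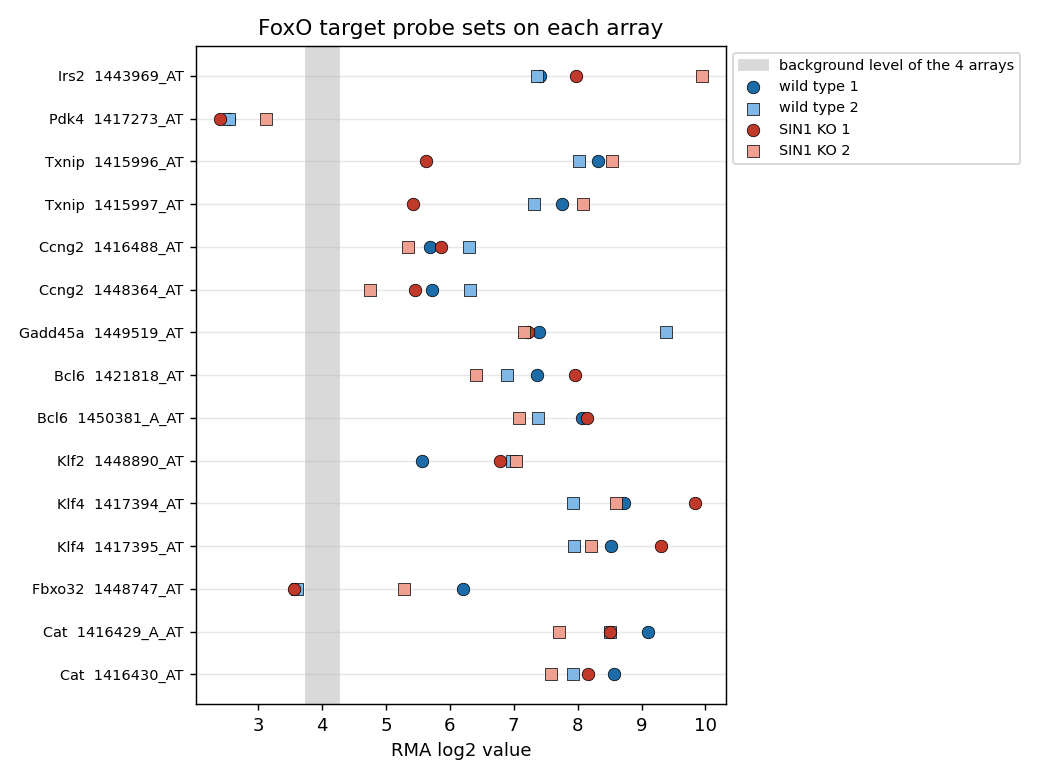
RMA log2 values (horizontal axis) of the 15 FoxO target probe sets, 1 row each, with 1 point per array. Blue marks wild type and red SIN1 KO, circles are replicate 1 and squares replicate 2, and the grey band spans the background levels of the 4 arrays, 3.75 to 4.27. Irs2 has both red points to the right of both blue ones, Txnip has SIN1 KO 1 alone on the left, Gadd45a has wild type 2 alone on the right, and Pdk4 lies left of the band.

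The arrays were alike in overall level, with medians of 4.23 to 4.32. Background was taken as the highest of 27 Bacillus subtilis control probe sets on each array, and 50.5% to 56.5% of all probe sets lay above it. Of the FoxO targets, 13 probe sets were above it on all 4 arrays, which holds for 46% of all probe sets, 1 (Fbxo32) on 2 arrays and 1 (Pdk4) on 0. Arrays of the same genotype differed widely. The median gap between the 2 arrays of a genotype of the 15 probe sets was 0.60 for wild type and 1.07 for SIN1 KO, against 0.53 in both for all probe sets above background on every array. For 1 of the 15, Ccng2 1448364_AT, the difference between the genotype means exceeded the gap within each genotype. The share of all probe sets for which this holds was not computed, so the count is a description alone.

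Irs2, the adaptor that passes the signal of the insulin and IGF1 receptors to PI3K and that FoxO factors induce, showed the largest difference of the 15 probe sets. Its probe set 1443969_AT measured 7.41 and 7.37 on the wild type arrays and 7.97 and 9.95 on the SIN1 KO arrays. The wild type arrays were nearly equal, and SIN1 KO 1 lay 0.56 above the nearer of them while SIN1 KO 2 lay 2.54 and 2.58 above them. The means were 7.39 ± 0.03 and 8.96 ± 1.40 (SD, n = 2 each), a log2 difference of 1.57 (SE 0.71, 95% interval -0.34 to 3.47, limma adjusted p 0.82). A difference of that size in either direction was found for 2.92% of all probe sets. Since the genotypes did not overlap, the direction could not turn with 1 array left out. The size changed, to 0.58 without SIN1 KO 2 and 2.56 without SIN1 KO 1.

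Txnip and Pdk4 are the members that act on fuel use. Txnip, an arrestin-family protein that inhibits thioredoxin and limits glucose uptake, and whose transcription rises with glucose, was covered by 2 probe sets that moved together. On 1415996_AT the values were 8.32 and 8.03 in wild type, 5.63 in SIN1 KO 1 and 8.53 in SIN1 KO 2. On 1415997_AT they were 7.76 and 7.31 in wild type, 5.43 in SIN1 KO 1 and 8.09 in SIN1 KO 2. Both probe sets put SIN1 KO 1 lowest and SIN1 KO 2 highest of the 4 arrays, so the wild type values fell between those of the knock-out arrays. The gap between the knock-out arrays was 7.45-fold on the first probe set and 6.33-fold on the second, a size reached by 0.648% and 0.855% of all probe sets for these arrays. The mean log2 differences between genotypes, -1.09 (SE 1.01, 95% interval -3.81 to 1.63) and -0.78 (SE 0.94, 95% interval -3.31 to 1.76), had limma adjusted p of 0.832 and 0.867. They turned to 0.36 and 0.56 without SIN1 KO 1 and fell to -2.54 and -2.11 without SIN1 KO 2. Txnip and Irs2 thus differed in which knock-out array stood apart from wild type, SIN1 KO 1 for Txnip and SIN1 KO 2 for Irs2.

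Pdk4, the kinase that switches off pyruvate dehydrogenase and spares glucose, gave 2.55 on both wild type arrays, 2.41 on SIN1 KO 1 and 3.12 on SIN1 KO 2 at 1417273_AT. All 4 values were below the background of their arrays, so no fold is given and the values have no order. Pdk4 enters the counts over 15 probe sets only as deposited. The probe set remained below background on all arrays when the second highest control set the level.

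Ccng2 and Gadd45a are the members tied to cell cycle arrest, and their 3 probe sets all had lower means in SIN1 KO (all probe sets: 46.1%). Ccng2 encodes cyclin G2, an unconventional cyclin that is high in resting cells and slows the cycle. Its probe set 1448364_AT measured 5.72 and 6.31 in wild type versus 5.45 and 4.75 in SIN1 KO, a separation of 0.27 between the nearest arrays. The log2 difference there was -0.92 (SE 0.39, 95% interval -1.98 to 0.14, limma adjusted p 0.82) and stayed between -1.27 and -0.57 with 1 array left out. The other probe set, 1416488_AT, measured 5.69 and 6.30 in wild type versus 5.86 and 5.35 in SIN1 KO. Here SIN1 KO 1 lay above wild type 1, the arrays overlapped, and the difference was -0.40 (SE 0.36, limma adjusted p 0.83). Both Ccng2 probe sets had wild type 2 highest and SIN1 KO 2 lowest.

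Gadd45a, a stress-induced protein that binds PCNA and CDK1 and takes part in DNA repair and arrest, measured 7.40 and 9.38 in wild type versus 7.22 and 7.17 in SIN1 KO at 1449519_AT. The knock-out arrays were 0.05 apart, while the wild type arrays were 1.98 apart, so wild type 2 stood alone and wild type 1 lay 0.18 above the higher knock-out array. The log2 difference of -1.19 (SE 0.71, 95% interval -3.10 to 0.71, limma adjusted p 0.82) was -0.20 without wild type 2 and -2.18 without wild type 1. A wild type gap as large as this one occurred in 2.62% of all probe sets.

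**Figure D2:**
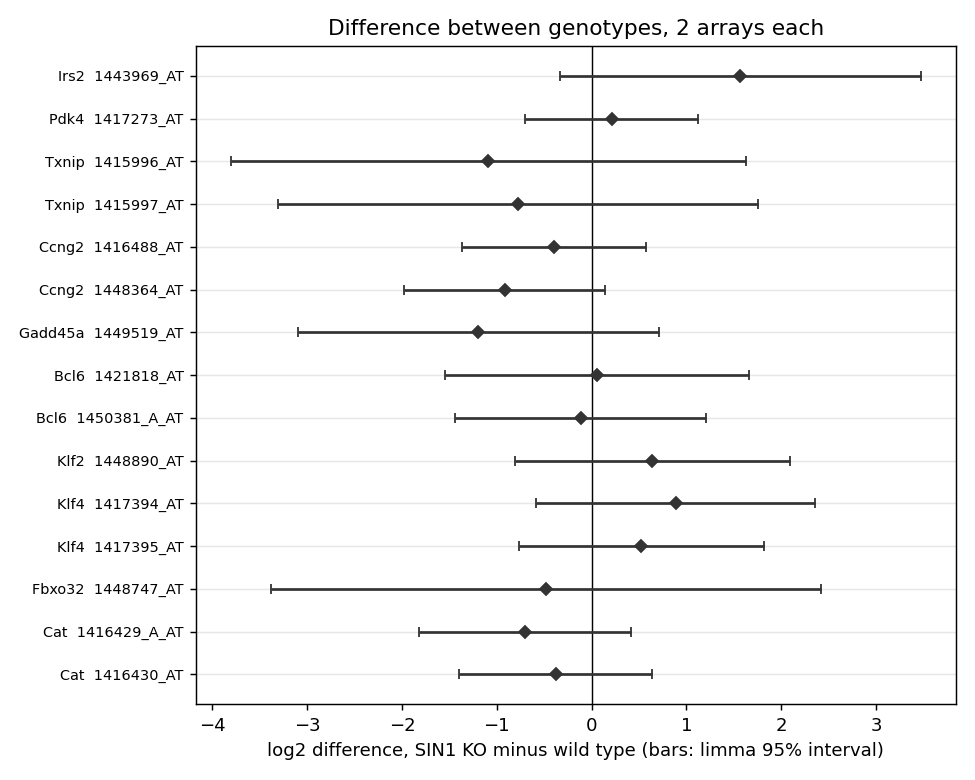
Log2 difference of SIN1 KO minus wild type (horizontal axis) for each probe set, with 2 arrays per genotype. Diamonds are the differences of the means and bars are limma's 95% intervals, each of which includes 0, from the narrowest, that of Pdk4 (-0.70 to 1.12), which rests on values below background, to the widest, that of Fbxo32 (-3.39 to 2.42), which does so in part.

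The 3 transcription factors had 5 probe sets, 4 with higher and 1 with a lower mean in SIN1 KO, beside 53.9% and 46.1% of all probe sets. All 5 overlapped between the genotypes, while 20.4% of all probe sets were higher and 14.9% lower without overlap. Klf4, a zinc finger factor of growth arrest and pluripotency, measured 8.72 and 7.94 in wild type versus 9.83 and 8.60 in SIN1 KO at 1417394_AT, and 8.52 and 7.94 against 9.30 and 8.21 at 1417395_AT. On both probe sets SIN1 KO 1 was the highest array and wild type 2 the lowest, with wild type 1 above SIN1 KO 2. The log2 differences were 0.89 (SE 0.55, limma adjusted p 0.82) and 0.52 (SE 0.48, limma adjusted p 0.831). Leaving out SIN1 KO 1 brought them to 0.27 and -0.02, and leaving out SIN1 KO 2 raised them to 1.502 and 1.07. Klf2 is a related factor best known from endothelial cells and T cells, and FoxO1 induces it in T cells. At 1448890_AT Klf2 measured 5.56 and 6.97 in wild type versus 6.78 and 7.03 in SIN1 KO. Wild type 1 was low and the 3 other arrays spanned 0.25, and the difference of 0.64 (SE 0.54, limma adjusted p 0.826) became -0.06 without wild type 1.

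Bcl6, a transcriptional repressor of B cell and metabolic genes, measured 7.36 and 6.89 in wild type versus 7.96 and 6.41 in SIN1 KO at 1421818_AT. At 1450381_A_AT it measured 8.07 and 7.38 in wild type versus 8.15 and 7.08 in SIN1 KO. The 2 knock-out arrays were the highest and the lowest of the 4 on both probe sets. Their mean differences, 0.06 (SE 0.60, limma adjusted p 0.991) and -0.11 (SE 0.49, limma adjusted p 0.969), were small beside the gaps of 1.55 and 1.07 between the knock-out arrays. The 95% intervals, -1.54 to 1.66 and -1.44 to 1.21, leave room for a change of more than 2-fold either way.

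Fbxo32 encodes atrogin-1, the ubiquitin ligase subunit that FoxO factors raise in wasting muscle. At 1448747_AT it measured 6.21 and 3.61 in wild type versus 3.56 and 5.28 in SIN1 KO. It was above background on 1 array of each genotype, wild type 1 and SIN1 KO 2, and below it on the other 2. With the second highest control as background, all 4 arrays were above it. Against the background of the dim array of the same genotype, wild type 1 was at least 4.93-fold and SIN1 KO 2 at least 2.90-fold higher. The mean log2 difference of the deposited values, -0.49 (SE 1.08, 95% interval -3.39 to 2.42, limma adjusted p 0.931), was -0.54 with the background level in place of the 2 dim values. The deposited difference turned to 0.82 without wild type 1 and 0.37 without SIN1 KO 1.

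Cat encodes catalase, the peroxisomal enzyme that breaks down hydrogen peroxide. It measured 9.11 and 8.50 in wild type versus 8.51 and 7.70 in SIN1 KO at 1416429_A_AT, and 8.57 and 7.93 against 8.16 and 7.58 at 1416430_AT. Wild type 1 was the highest array and SIN1 KO 2 the lowest on both, with wild type 2 and SIN1 KO 1 between them, 0.00 and 0.23 apart. The log2 differences of -0.70 (SE 0.42, limma adjusted p 0.82) and -0.38 (SE 0.38, limma adjusted p 0.844) stayed negative with each array left out, from -1.10 to -0.30 and from -0.70 to -0.06.

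Where a gene had 2 probe sets, these gave similar profiles over the arrays, with the arrays in the same order for all but Ccng2. For all 5 such genes (Txnip, Ccng2, Bcl6, Klf4, Cat) the same array was highest and the same array lowest on both probe sets. Set to a mean of 0 over the arrays, the 2 probe sets of a gene differed on any array by at most 0.27 for Txnip and Cat, 0.28 for Klf4, 0.33 for Bcl6 and 0.36 for Ccng2. Every gap between the arrays of a genotype was larger than that for the same gene, the smallest being the wild type gap of Txnip 1415996_AT, 0.29. The 0.36 of Ccng2 is larger than the 0.27 that separates the nearest arrays of the genotypes on 1448364_AT. The probe sets of a gene read the same RNA, so their likeness says nothing about the spread between cultures.

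**Figure D3:**
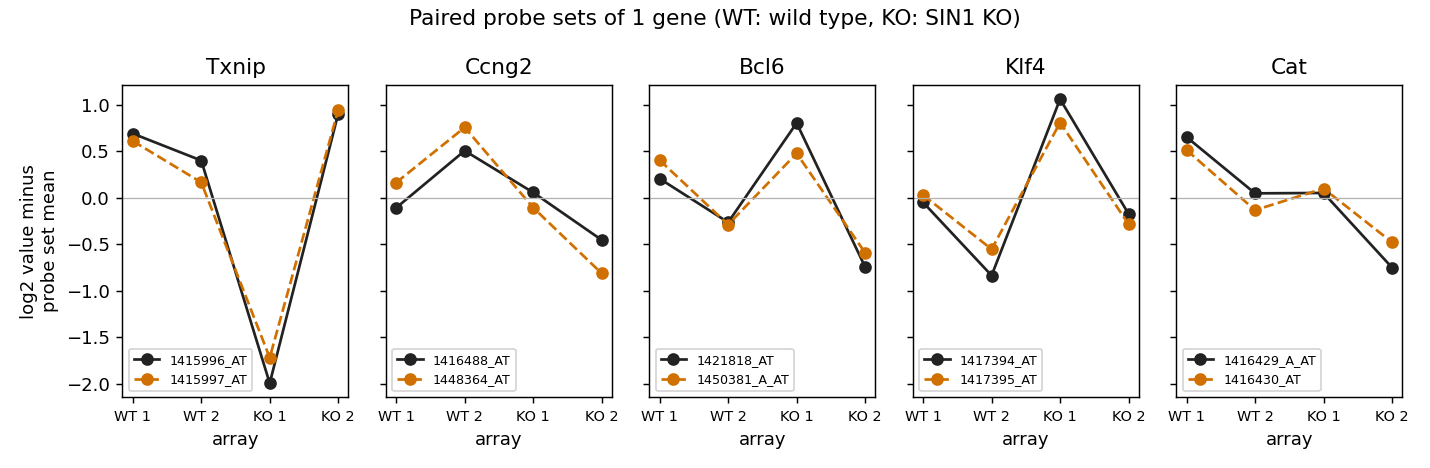
Log2 value minus the probe set's own mean (vertical axis) on each array (horizontal axis, WT for wild type and KO for SIN1 KO) for the 5 genes with 2 probe sets, 1 line per probe set; the lines link arrays only to show a profile. The lines of a gene lie close together, with a largest gap of 0.36 in Ccng2, and Txnip drops on KO 1 in both.

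Comparing single arrays showed which differences held in each pairing. SIN1 KO 1 was above wild type 1 for 7 probe sets and below it for 8, where 47.7% of all probe sets were above and 51.4% below. SIN1 KO 2 was above wild type 2 for 8 and below it for 7, where 57.3% of all were above and 42% below. The 2 numbered pairs went in opposite directions for 7 of the 15 probe sets, near the 52.9% of all probe sets (6 of 14 without Pdk4). They went the same way for 8, higher for Irs2, Klf2 and both Klf4 probe sets and lower for Gadd45a, Ccng2 1448364_AT and both Cat probe sets. Of these, Irs2, Gadd45a and Ccng2 1448364_AT alone kept their direction when the arrays were paired across numbers. That is the same as not overlapping, which held for 20.4% of all probe sets higher and 14.9% lower, and adds no check. SIN1 KO 2 was the lowest array for 7 probe sets and the highest for 5 (4 without Pdk4), and it was the lowest for 26.1% and the highest for 37.2% of all probe sets. In size, the pair of number 2 arrays differed most for Irs2, by 2.58, and for Gadd45a, by -2.21, and the pair of number 1 arrays for Txnip, by -2.68 and -2.33, among probe sets above background on both arrays of the pair.

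**Figure D4:**
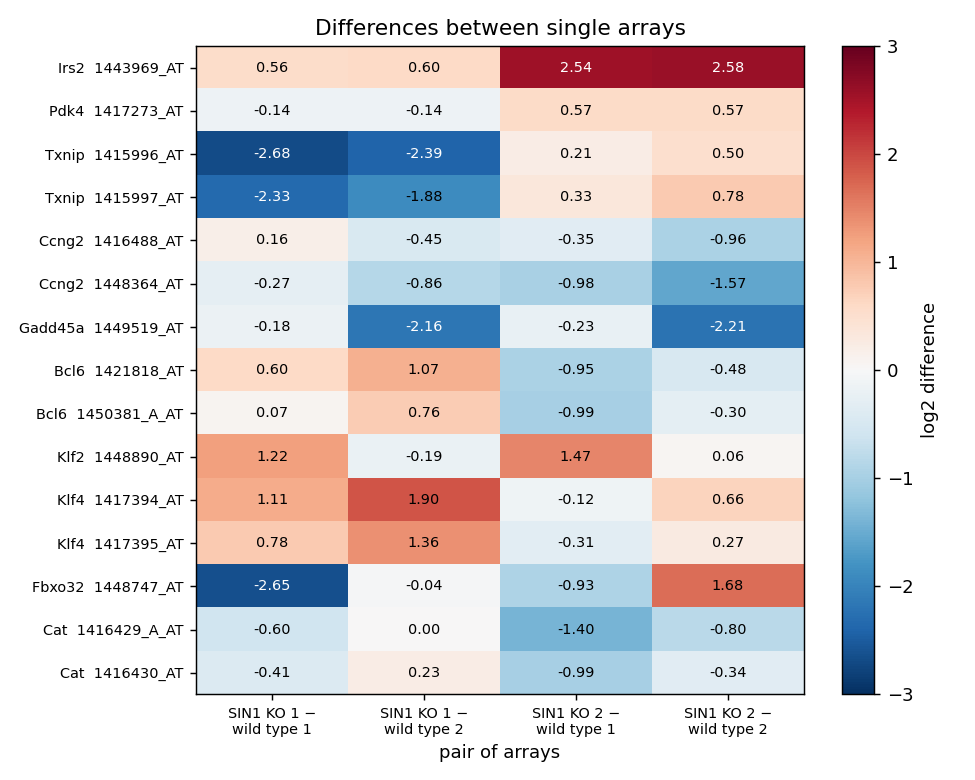
Log2 differences between single arrays for the 15 probe sets (rows) in the 4 pairings of a SIN1 KO with a wild type array (columns); red is higher and blue lower in SIN1 KO, and each cell prints its value. The Irs2 row is red throughout (0.56 to 2.58) and the Gadd45a row blue throughout (-0.18 to -2.21), while Txnip is blue in both SIN1 KO 1 columns and red in both SIN1 KO 2 columns. The Pdk4 row, and the Fbxo32 row outside the column of SIN1 KO 2 with wild type 1, rest on values below background.

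The scale set between arrays bears on these counts. The 18 hybridisation controls, spiked into every sample ahead of hybridisation, read lower on the SIN1 KO arrays (means of 11.41 and 11.54) than on the wild type arrays (11.85 and 11.73). Scaling each array to them raised the median difference of all probe sets by 0.32, to 0.36. Under that scale 5 of the 15 probe sets were higher without overlap (Irs2, Klf2, both of Klf4 and Pdk4, the last below background), where 51.4% of all probe sets were, and 0 were lower, where 4.21% were. Gadd45a and Ccng2 1448364_AT then overlapped, with log2 differences of -0.87 and -0.60. Irs2 remained without overlap under the deposited scale, median centring, cyclic loess and the control scale, with differences of 1.54 to 1.89. The control scale raises both SIN1 KO arrays against both wild type arrays, which could only widen the Irs2 separation. Centring and cyclic loess moved the overall median by 0.032 and -0.037, little beside the 0.56 between the nearest Irs2 arrays. Median centring left the counts at 1 higher and 2 lower (all probe sets: 23.9% and 13.3%), and cyclic loess gave 1 and 3 (all probe sets: 19.2% and 17.6%), the added one being Cat 1416429_A_AT. Whether the lower controls on the SIN1 KO arrays have a part in any difference was not tested.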

How the data were processed

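RNA of 2 wild type and 2 SIN1 KO cultures or aliquots (the labels do not say which) was put on 1 array each, and the sample titles gave the group and replicate number. The deposited values are log2 values that the authors made with RMA (background correction, between-array normalization and a summary per probe set), per the submitters' processing notes. Its version is not given in the sources used here, and the log2 scale was read from the range of the values. SIN1 KO was compared with wild type by limma 3.58.1 in R 4.3.3 (lmFit, eBayes without trend, no block) on 45037 probe sets, leaving out 64 controls, adjusted by Benjamini-Hochberg at 0.05. Residual degrees of freedom were 2, those of the prior 2.38, and the median standard error was 0.33. The fitting script was tested on simulated data with known changes, all larger than any genotype difference of the 15 probe sets. That run does not show how often changes of the sizes seen here would pass. The number of arrays limits the precision. Each probe set was counted by itself. All 15 probe sets were named with every array's value. The probe sets, lists and tests were chosen with earlier results of these data known. Lists of FoxO factors, AKT and SGK genes, further FoxO targets and cell type markers were not used, since no table used here pairs probe sets with genes. Nothing says that replicate numbers mark a shared culture, and deviations of same-numbered arrays were opposed (r = -0.42 across probe sets). Alternatives were median centring, cyclic loess, scaling to hybridisation controls, a filter at the median level, trended or robust priors, the replicate number as a block and leaving out each array. Plots came from matplotlib 3.10.9 (Python 3.11.15).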

Additional observations from a re-analysis of the deposited data

How the results depend on the processing

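No FoxO target probe set passed the adjusted threshold under any alternative run. Over all probe sets, the filter at the median level, which tests fewer probe sets, gave 5 higher, and no other alternative gave any in either direction; the number of these calls with the replicate block was 0, and a block of the crossed pairing, added after seeing the data since deviations of same-numbered arrays were opposed, also gave 0. At the unadjusted threshold the block gave 663 higher and 630 lower and the crossed block 2899 and 3473, against 1350 and 1159. The median log2 difference of the 15 probe sets moved from -0.38 to -0.059 under scaling to the hybridisation controls and to -0.26 with the mean per gene taken first, and lay between -0.20 and -0.021 with 1 array left out. Probe sets without overlap went from 1 higher and 2 lower to 5 and 0 under the control scale, which moves all probe sets alike. With 1 array left out, added after the data were seen and looser by construction, they were 2 to 5 and 3 to 7, where 29.9% to 43.7% of all probe sets were higher and 28% to 33.2% lower. The filter, priors and blocks repeat the difference of a single probe set and could not turn it. Of 105 values under other scalings or with an array left out, 93 kept their direction and 12 did not. Of those 12, 11 were among the 60 values with an array left out. The 93 are no measure of stability, since many values could not turn. Median centring moved every difference by 0.032, less than the smallest of the 15, 0.06. A probe set without overlap keeps its direction with any array left out. The 2 probe sets of a gene are counted apart, and no share over all probe sets was taken. The range with 1 array left out crossed 0 for Txnip (-2.54 to 0.36 and -2.11 to 0.56), Pdk4 (-0.14 to 0.57, below background), Bcl6 (-0.71 to 0.83 and -0.65 to 0.42), Klf2 (-0.062 to 1.35), Klf4 1417395_AT (-0.021 to 1.07) and Fbxo32 (-1.79 to 0.82). Bcl6 1450381_A_AT also turned to 0.21 under the control scale. For values that turned with a left-out array the cause was not tested. The signal over background limits Pdk4 and Fbxo32.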
